A study of Mus musculus with 15 samples.

Results

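Il33+ stromal cells were sorted from 2 tissues of the same reporter strain, white adipose tissue (WAT) and lung, and their transcriptomes were compared for the genes that set the stromal cells of each tissue apart. The 6 libraries are the 3 titled as mesenteric Il33+ mesenchymal stromal cells (Il33+ WAT-MSC) and the 3 titled as lung Il33+ MSC (Il33+ lung MSC), out of 15 libraries of 5 populations. They were chosen by their titles alone. All mice carried the IL-33-citrine reporter on a C57BL/6 background and were heterozygous for it, and cells were sorted directly from tissue with no treatment named in the labels; the age of the mice is not given in the sources used here. The WAT gate took CD45-EpCAM-CD31-CD24- cells positive for PDGFRα, CD34, Sca1 and podoplanin, and the reporter divided these into citrine+ and citrine- cells; for the lung cells the sources used here give the name of the population but no gate of its own. The replicates were described as independent experiments. The other 9 libraries (Il33- WAT-MSC, CD31+ endothelial cells of WAT and EpCAM+ epithelial cells of lung) are used below mainly as levels set beside the comparison. The lung epithelial libraries also serve in the rule that sets genes apart, and all 9 enter an alternative fit.

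Fibroblast-like stromal cells hold the matrix of an organ together and secrete factors that instruct epithelium, vessels, nerves and leukocytes. Cells of this kind in different organs share a common programme of collagens and proteoglycans, but they keep a record of where in the embryo they arose, in the form of Hox, T-box and other developmental transcription factors. In mouse tissues Pdgfra+ fibroblasts around vessels and airways are a main source of IL-33, an alarmin that activates group 2 innate lymphoid cells. WAT holds Pdgfra+ progenitors that can become adipocytes, and lung holds alveolar and adventitial fibroblasts that support the gas exchange surface and the cuffs of the larger vessels.

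Levels are given in RPKM, a read number scaled to transcript length and to the size of the library, summed over the listed transcripts of a gene, and differences as log2(RPKM + 1) in WAT minus lung with their SE, so that a positive value is higher in WAT. Because of the added 1, differences of weakly expressed genes come out smaller than their ratios. Where a call was lost when 1 library was left out, the adjusted p is given without the library whose omission raised it most. The same call could also be lost without other libraries. The 6 libraries held 43825859 to 55255628 alignments. Correlations between libraries on the log2 scale were 0.930 to 0.953 within lung, 0.889 to 0.951 within WAT and 0.820 to 0.907 between the tissues. Replicate 2 of Il33+ WAT-MSC stood somewhat apart, with 0.889 and 0.902 to the other WAT libraries. In such sorted bulk samples fewer cells of a type and less RNA per cell cannot be told apart.

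Most genes of the gate, and Il33, the gene that carries the reporter, did not pass the test between the tissues; here and below, missing the threshold does not show that levels were alike. Il33 itself was at 38.7, 78.5 and 41.9 RPKM in WAT and at 47.0, 43.0 and 55.7 RPKM in lung, so the groups overlapped, and its log2 difference was 0.06 ± 0.27 (limma, adjusted p = 0.945). The corresponding mean in Il33- WAT-MSC was 5.19 RPKM. Pdgfra (0.34 ± 0.25), Cd34 (0.35 ± 0.17), Ly6a, which encodes Sca1 (-0.24 ± 0.25), and Pdpn, podoplanin (0.24 ± 0.27), did not pass the test. Of 10 tested genes of the stromal gate and phenotype only Thy1, the CD90 antigen, did. It was at 30.1, 53.2 and 35.8 RPKM in WAT and 7.76, 11.6 and 16 RPKM in lung, without overlap (1.68 ± 0.29, limma adjusted p = 0.00682). Of the other genes that have been examined for the dialogue of these cells with lymphocytes and eosinophils, Ccl11, Icam1, Kitl, Tslp and Il4ra did not pass the test either, with log2 differences of 0.40, -0.71, -0.68, -0.31 and -0.70.

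Of 8554 genes tested, 513 (6.0%) passed an adjusted p of 0.05, 214 (2.5%) higher in WAT and 299 (3.5%) higher in lung, and the 3 and 3 libraries did not overlap for 1973 genes (23.1%). Genes typical of other lung cells were higher in the lung libraries as well. The summed RPKM of 26 lung epithelial genes was 266 to 636 in Il33+ lung MSC, against 84.7 to 169 in WAT and 168992 to 219359 in the sorted lung epithelial cells. That of 19 alveolar macrophage and myeloid genes was 289 to 357 in lung and 18.7 to 45.9 in WAT. For this reason 20 called genes on these lists and 58 more whose mean in lung epithelial cells reached that in lung MSC, 78 in all and each higher in lung, were set apart. That left 435 stromal candidates, 214 higher in WAT (2.5% of genes tested) and 221 higher in lung (2.58%), with median log2 differences of 1.60 and -1.60. Since genes were set apart on the lung side alone, the near balance of these counts is not a result. Of the 214, 7 were on a list of mesothelial genes and 2 on a list of erythroid genes, against 0 and 0 of the 221. Called genes of the epithelial and macrophage lists had been removed, so their absence from the 221 is not a result. These lists do not hold every gene of such cells. Bin2, Mcemp1 and Cd300ld, genes known from leukocytes, were kept, with 3.31, 3.13 and 2.28 RPKM in lung MSC and 2.86, 2.73 and 2.25 in epithelial cells. The part of leukocyte RNA in the 221 was not tested. The nearest genes on either side of this level rule were Nostrin, kept with 1.39 RPKM in lung MSC and 1.38 in epithelial cells, and Chil3, set apart with 44.8 and 45.0; Chil3 was also on the macrophage list. Most candidates were expressed in both tissues: only 47 of those higher in WAT were below 1 RPKM in every lung library, and 51 of those higher in lung were below 1 RPKM in every WAT library. Such genes entered the test through 1 tissue alone and could be called in that direction only. The lists below overlap in a few genes.

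**Figure D1:**
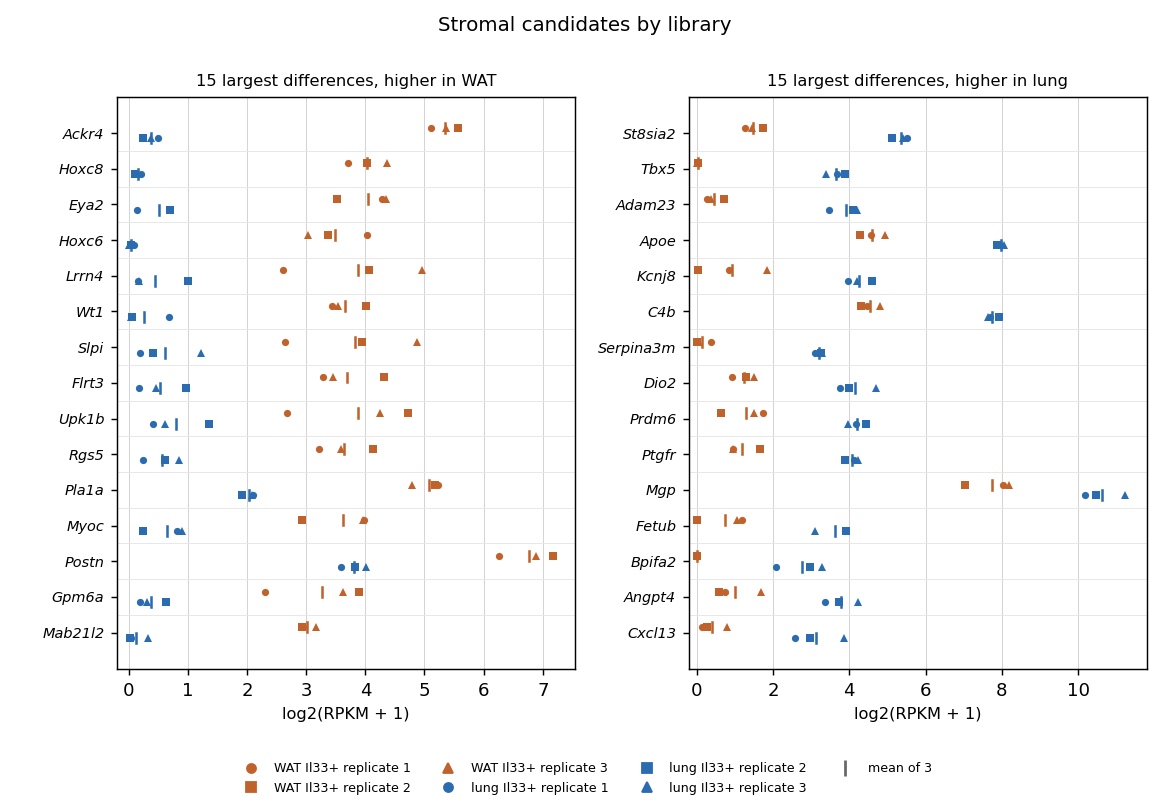
Level of the 15 stromal candidates with the largest difference in each direction, as log2(RPKM + 1) in each library; orange symbols are the 3 Il33+ WAT-MSC libraries, blue symbols the 3 Il33+ lung MSC libraries, and the vertical tick is the mean of 3. Ackr4 leads the genes higher in WAT with a log2 difference of 4.98 and St8sia2 those higher in lung with -3.86, and no gene shown overlaps between the tissues.

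The HoxC genes were found in WAT and were near 0 in lung, while the HoxA and HoxB genes were expressed in both tissues. Hox genes lie in clusters, are switched on in order along the head to tail axis of the embryo and are kept in adult fibroblasts as a mark of position. Of 15 listed Hox genes 13 were tested, 4 were higher in WAT and 2 in lung, beside 2.5% and 3.5% of all genes tested. All 3 listed HoxC genes were among the 4. These 4 were below 1 RPKM in every lung library, so they entered the test through the WAT libraries alone and could be called in that direction only. The summed level of the HoxC genes was 35.4, 27.5 and 33.9 RPKM in WAT and 0.26, 0.27 and 0.15 RPKM in lung, so that next to no HoxC transcript was found in the lung libraries. The listed HoxA genes, all from the anterior part of their cluster, summed to 11.8, 4.09 and 10.8 RPKM in WAT and 26.5, 27.4 and 21.4 RPKM in lung. Transcripts low in every population are mostly absent from the deposited values, so the genes listed are not a full survey of a family. The HoxB genes summed to 11.04, 10.5 and 15.2 RPKM in WAT and 18.04, 22.1 and 16.1 RPKM in lung. Of these, 1 of 4 HoxA genes and 1 of 5 tested HoxB genes passed the test.

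Hoxc8 (chr15:102990539-102994275, GRCm38.p6) was at 12.1, 15.2 and 19.6 RPKM in WAT and 0.15, 0.08 and 0.12 RPKM in lung, a log2 difference of 3.87 ± 0.28 (limma, adjusted p = 7.41e-05). Its neighbour Hoxc6 (chr15:102998226-103011882) was at 15.4, 9.36 and 7.21 RPKM in WAT and 0.06, 0.02 and 0 RPKM in lung (3.44 ± 0.32, adjusted p = 0.000217). Hoxc4 (chr15:103018097-103036856) followed with 7.94, 2.86 and 7.01 RPKM in WAT and at most 0.17 RPKM in lung (2.59 ± 0.36, adjusted p = 0.0020). The 3 genes are neighbours in the list, with gaps of 4.0 and 6.2 kb between them, and the library kit does not mark strand, so overlapping or antisense transcripts of this cluster cannot be told apart. Hoxd8, on another chromosome, gave the same direction, with 3.29, 3.21 and 4.44 RPKM in WAT and 0, 0.51 and 0 RPKM in lung (2.01 ± 0.31, adjusted p = 0.0034). The means in Il33- WAT-MSC stood at 10.8 RPKM for Hoxc8, 10.1 for Hoxc6, 6.23 for Hoxc4 and 2.72 for Hoxd8.

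Hoxa5, needed for the patterning of lung mesenchyme and airway, was the clearest Hox gene of lung. It was at 11.7, 11.2 and 9.54 RPKM there and at 3.08, 1.47 and 4.51 RPKM in WAT (-1.63 ± 0.32, limma adjusted p = 0.0122), so it was present in both tissues. Hoxb4 was at 5.39, 6.01 and 3.77 RPKM in lung and 1.94, 0.73 and 1.98 RPKM in WAT (-1.27 ± 0.32, adjusted p = 0.0457). Hoxb4 lost the limma call with any 1 library left out, at its weakest without lung replicate 2 (adjusted p = 0.203). Hoxa5 kept the call in 4 of 6 such fits and was at 0.0696 without that library. Hoxb5, with 6.55, 10.6 and 7.16 RPKM in lung and 2.98, 0.08 and 2.82 RPKM in WAT, missed the threshold (-1.81 ± 0.47, adjusted p = 0.0529). Hoxb6 did not pass it either (0.99 ± 0.45, adjusted p = 0.293). Hoxb9 and Hoxd9 were too low to be tested.

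The RefSeq promoter windows of the called Hox and T-box genes for which a window was at hand, and of Ackr4, the gene with the largest difference, are given to show the start regions of called positional factors beside that of the leading gene. Each runs 5′ to 3′ on the strand of the gene, from 250 bases before a transcription start to 50 bases after it (GRCm38.p6), and the capitals mark the 50 bases from that start on.
Hoxc4, chr15:103034145-103034444, plus strand: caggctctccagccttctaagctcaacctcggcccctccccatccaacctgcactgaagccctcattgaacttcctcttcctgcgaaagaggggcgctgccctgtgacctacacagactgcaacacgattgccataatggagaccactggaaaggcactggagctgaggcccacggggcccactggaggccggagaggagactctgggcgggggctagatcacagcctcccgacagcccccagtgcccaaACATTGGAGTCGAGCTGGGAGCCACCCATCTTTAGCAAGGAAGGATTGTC
Hoxd8, chr2:74704365-74704664, plus strand: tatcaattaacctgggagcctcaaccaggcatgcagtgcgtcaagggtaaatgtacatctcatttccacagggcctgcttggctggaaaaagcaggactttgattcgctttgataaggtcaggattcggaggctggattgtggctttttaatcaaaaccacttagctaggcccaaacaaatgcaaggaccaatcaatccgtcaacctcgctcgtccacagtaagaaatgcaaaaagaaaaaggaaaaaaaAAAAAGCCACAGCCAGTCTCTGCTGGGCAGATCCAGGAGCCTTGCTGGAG
Ackr4, chr9:104126594-104126893, minus strand: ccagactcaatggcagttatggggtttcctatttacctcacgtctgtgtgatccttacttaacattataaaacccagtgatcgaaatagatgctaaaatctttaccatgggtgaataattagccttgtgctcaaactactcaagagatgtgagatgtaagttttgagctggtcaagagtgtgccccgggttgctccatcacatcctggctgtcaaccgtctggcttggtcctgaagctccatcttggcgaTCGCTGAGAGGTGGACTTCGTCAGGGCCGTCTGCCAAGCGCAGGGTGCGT
Hoxa5, chr6:52204538-52204837, minus strand: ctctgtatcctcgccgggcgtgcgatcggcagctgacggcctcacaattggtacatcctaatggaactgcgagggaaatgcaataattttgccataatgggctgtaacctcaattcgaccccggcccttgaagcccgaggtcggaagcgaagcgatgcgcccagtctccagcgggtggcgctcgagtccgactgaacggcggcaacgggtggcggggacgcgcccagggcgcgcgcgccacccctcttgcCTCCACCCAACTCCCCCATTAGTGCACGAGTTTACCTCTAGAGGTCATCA
Hoxb4, chr11:96318017-96318316, plus strand: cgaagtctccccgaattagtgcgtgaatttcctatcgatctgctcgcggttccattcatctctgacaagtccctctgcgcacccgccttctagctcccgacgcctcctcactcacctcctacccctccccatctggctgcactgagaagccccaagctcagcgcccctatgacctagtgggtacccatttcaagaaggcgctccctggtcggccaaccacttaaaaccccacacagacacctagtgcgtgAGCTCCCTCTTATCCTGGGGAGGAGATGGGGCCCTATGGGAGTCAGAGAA
Tbx4, chr11:85896515-85896814, plus strand: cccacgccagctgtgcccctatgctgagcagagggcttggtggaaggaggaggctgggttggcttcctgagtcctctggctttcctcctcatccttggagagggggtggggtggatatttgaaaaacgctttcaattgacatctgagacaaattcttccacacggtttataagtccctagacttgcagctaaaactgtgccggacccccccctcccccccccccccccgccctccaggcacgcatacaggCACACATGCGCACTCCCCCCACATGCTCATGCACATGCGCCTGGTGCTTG
The Hoxc4 and Tbx4 windows start inside the span of the gene, at the start of a shorter transcript. The first 3, of genes higher in WAT, held 9, 6 and 10 CpG dinucleotides, and the last 3, of genes higher in lung, held 29, 14 and 8, beside a median of 21 over 8372 windows of genes tested (quartiles 13 and 30). None of the 6 held the T-box letters AGGTGTGA, the EBF palindrome (TCCC, any 2 bases, GGGA) or the GLI letters TGGGTGGTC, searched on both strands. Over all 6556 tested genes with a window these were found in 0.915%, 1.22% and 0.305%. Among the candidates higher in WAT that have one, 2, 4 and 1 of 151 genes held them, and among those higher in lung 0, 0 and 1 of 154.

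**Figure D2:**
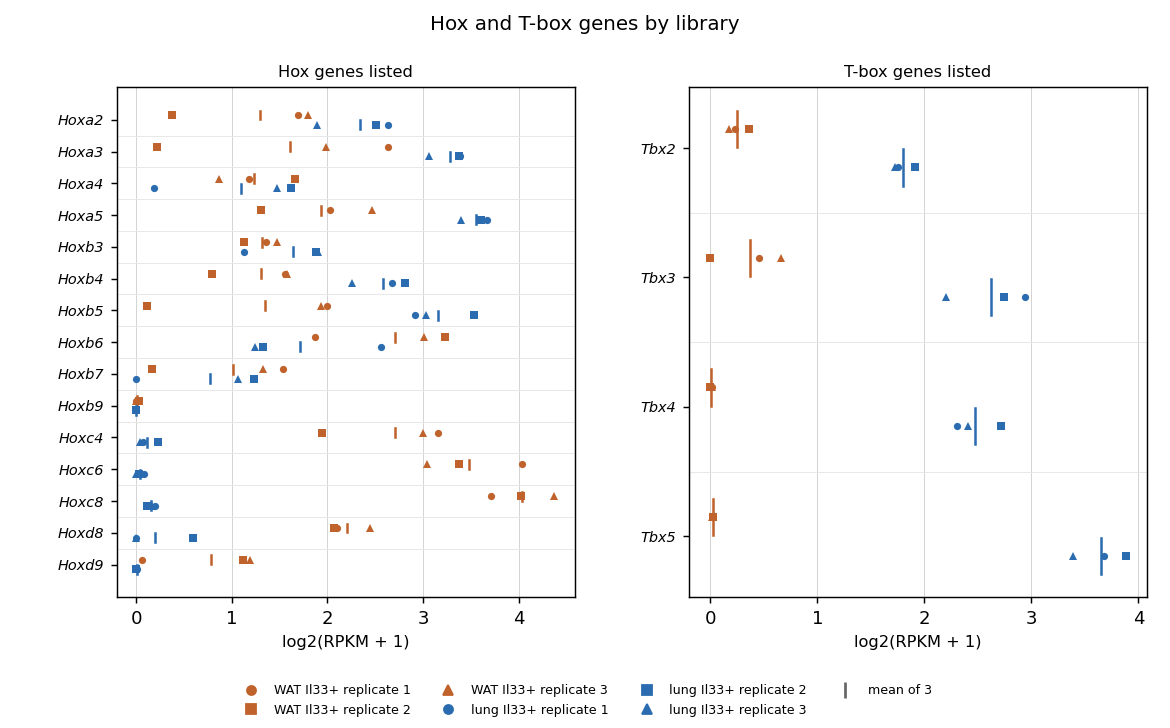
Level of every listed Hox gene (left) and T-box gene (right), as log2(RPKM + 1) in each library; orange symbols are the 3 WAT libraries, blue symbols the 3 lung libraries, and the vertical tick is the mean of 3. Hoxc4, Hoxc6, Hoxc8 and Hoxd8 lie near 0 in lung, and all 4 T-box genes lie near 0 in WAT.

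T-box factors gave the opposite pattern to the HoxC genes. All 4 listed members, Tbx2, Tbx3, Tbx4 and Tbx5, passed the test and were higher in lung. Over all genes tested 3.5% were higher in lung. Each of the 4 was below 1 RPKM in every WAT library, so it entered the test through the lung libraries alone. A call in the other direction was therefore not possible, and the count is no measure of support. These factors are expressed in the mesenchyme of the lung bud, where Tbx4 and Tbx5 act in branching and in the outgrowth of the bud. Tbx5 was at 11.8, 13.8 and 9.46 RPKM in lung and at 0.02, 0.02 and 0.01 RPKM in WAT (-3.63 ± 0.28, limma adjusted p = 8.80e-05). Tbx4 was at 3.94, 5.55 and 4.30 RPKM in lung and at most 0.01 RPKM in WAT (-2.46 ± 0.28, adjusted p = 0.000673). Neither gene was found at a level above 0.02 RPKM in any of the 3 libraries, nor in the mean of Il33- WAT-MSC. Tbx3 was at 6.66, 5.68 and 3.60 RPKM in lung and 0.37, 0 and 0.58 RPKM in WAT (-2.25 ± 0.33, adjusted p = 0.00243). Tbx2 was at 2.37, 2.77 and 2.30 RPKM in lung and 0.17, 0.28 and 0.13 RPKM in WAT (-1.54 ± 0.28, adjusted p = 0.00868). The 4 genes form 2 pairs in the genome, Tbx2 (chr11:85832615-85841948) with Tbx4 (chr11:85886367-85916097), 44.4 kb apart, and Tbx3 (chr5:119670534-119684724) with Tbx5 (chr5:119796514-119885220), 111.8 kb apart. Their means in sorted lung epithelial cells were 1.33, 0.91, 0.883 and 1.01 RPKM for Tbx2, Tbx3, Tbx4 and Tbx5, below those of lung MSC.

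None of 11 forkhead factors passed the limma test, beside 6.0% of all genes tested. Of the 11, 2 (Foxf1 and Foxc1) had an unadjusted p under 0.05, and 1 was called higher in lung without WAT replicate 3. Foxf1, a mesenchymal factor of lung and gut, was at 8.29, 13.6 and 9.27 RPKM in lung and 3.92, 2.96 and 6.92 RPKM in WAT (-1.06 ± 0.31, limma adjusted p = 0.0884). Foxc1 was at 6.81, 5.11 and 8.80 RPKM in lung and 12.4, 15.7 and 11.2 RPKM in WAT (0.85 ± 0.25, adjusted p = 0.0914). In both cases the libraries did not overlap but the difference was not past the threshold. Mesenchymal regulators shared by many fibroblasts likewise did not pass the test, as with Tcf21, a factor of visceral mesenchyme, at 28.6, 45.6 and 27.4 RPKM in WAT and 20.2, 27.1 and 25.2 RPKM in lung.

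Among 42 other patterning factors tested, 11 were higher in WAT and 3 in lung, beside 2.5% and 3.5% of all genes tested. Some of the 11, among them Ebf3, Nkx2-3, Hand2, Eya2 and Wt1, were below 1 RPKM in every lung library. They entered the test through the WAT libraries alone and could be called in that direction only, so the count is no measure of support. The members higher in WAT included 3 early B cell factors, which take part in the commitment of adipocyte precursors. Ebf3 was at 5.11, 11.2 and 8.14 RPKM in WAT and 0.20, 0.31 and 0.34 RPKM in lung (2.78 ± 0.32, limma adjusted p = 0.00069). Ebf1 was expressed in both tissues, with 55.5, 82.4 and 46.0 RPKM in WAT and 17.8, 14.9 and 12.5 RPKM in lung (1.93 ± 0.25, adjusted p = 0.00115). Ebf2 gave 38.9, 64.8 and 36.2 RPKM against 20.6, 17.3 and 12.3 RPKM (1.41 ± 0.27, adjusted p = 0.0119), a call lost without lung replicate 2 (adjusted p = 0.0538).

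Some of the factors higher in WAT were near 0 in lung. Nkx2-3, a homeobox factor of gut and spleen mesenchyme, was at 8.70, 3.29 and 7.24 RPKM in WAT and at most 0.04 RPKM in lung (2.78 ± 0.35, limma adjusted p = 0.00107). Hand2, a basic helix-loop-helix factor of lateral mesoderm and its derivatives, was at 2.56, 3.80 and 4.23 RPKM in WAT and at most 0.01 RPKM in lung (2.15 ± 0.29, adjusted p = 0.00176). Eya2, a transcriptional coactivator and phosphatase, was at 18.5, 10.4 and 19.3 RPKM in WAT and 0.10, 0.62 and 0.62 RPKM in lung (3.54 ± 0.32, adjusted p = 0.000188). All 3 stood clear of the lung level in every library. Meox1 (2.07 ± 0.34), Zfhx4 (2.29 ± 0.22) and Tshz2 (1.87 ± 0.20) were also higher in WAT. Wt1, a factor of mesothelium and of visceral fat progenitors, was at 9.80, 15.1 and 10.6 RPKM in WAT and 0.61, 0.04 and 0.03 RPKM in lung (3.40 ± 0.31, adjusted p = 0.000195). Its mean in Il33- WAT-MSC was 15.9 RPKM.

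Hedgehog pathway genes were called in both directions. Gli3, which acts mainly as a repressor when the ligand is absent, was higher in WAT (1.06 ± 0.24, limma adjusted p = 0.0291). Hhip, a membrane protein that binds hedgehog ligands and is itself a target of the pathway, was at 6.67, 9.01 and 6.04 RPKM in lung and 1.13, 2.88 and 1.32 RPKM in WAT (-1.61 ± 0.32, adjusted p = 0.0130). Gli1, an activator and target, was at 13.1, 9.79 and 11 RPKM in lung and 5.90, 4.02 and 5.48 RPKM in WAT (-1.01 ± 0.24, adjusted p = 0.0359). Gli1 lost the limma call with any 1 library left out, at its weakest without lung replicate 1 (adjusted p = 0.149). Gli3 kept it in only 1 of 6 such fits and was weakest without lung replicate 2 (0.146). Hhip lost it without lung replicate 2 (0.0855).

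Genes on marker lists of other cells were among the leading genes of WAT. Of the 15 genes with the largest difference there, 4 (Lrrn4, Wt1, Upk1b and Gpm6a) are on a list of mesothelial genes. Of the 14 listed mesothelial genes 7 were called, all higher in WAT, beside 2.5% of all genes tested. The summed level of the list was 72.8, 189.7 and 210.45 RPKM in WAT and 36.3, 38.2 and 37.8 RPKM in lung; in Il33- WAT-MSC it was 43.3, 63.5 and 45.3 RPKM. Upk1b was at 5.35, 25.4 and 17.9 RPKM in WAT and Lrrn4 at 5.06, 15.7 and 30.1 RPKM, so that replicate 1 was lowest for each, as it was for the list. Slpi, a secreted protease inhibitor, had the same order (5.24, 14.4 and 28.3 RPKM). Hoxc8 and Ackr4 were lowest in replicate 1 too, while Hoxc6 was highest in it. The CD31+ endothelial libraries of WAT held 119, 357 and 385 RPKM of the list, and the part of mesothelial RNA in the genes higher in WAT was not tested. Hbb-b1 and Hbb-bs, globin genes, were higher in WAT as well, with a summed erythroid list of 14.2, 55.7 and 68.6 RPKM in WAT and 3.23, 5.46 and 15.4 RPKM in lung; Hbb-bs lost its limma call without lung replicate 2 (adjusted p = 0.116).

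**Figure D3:**
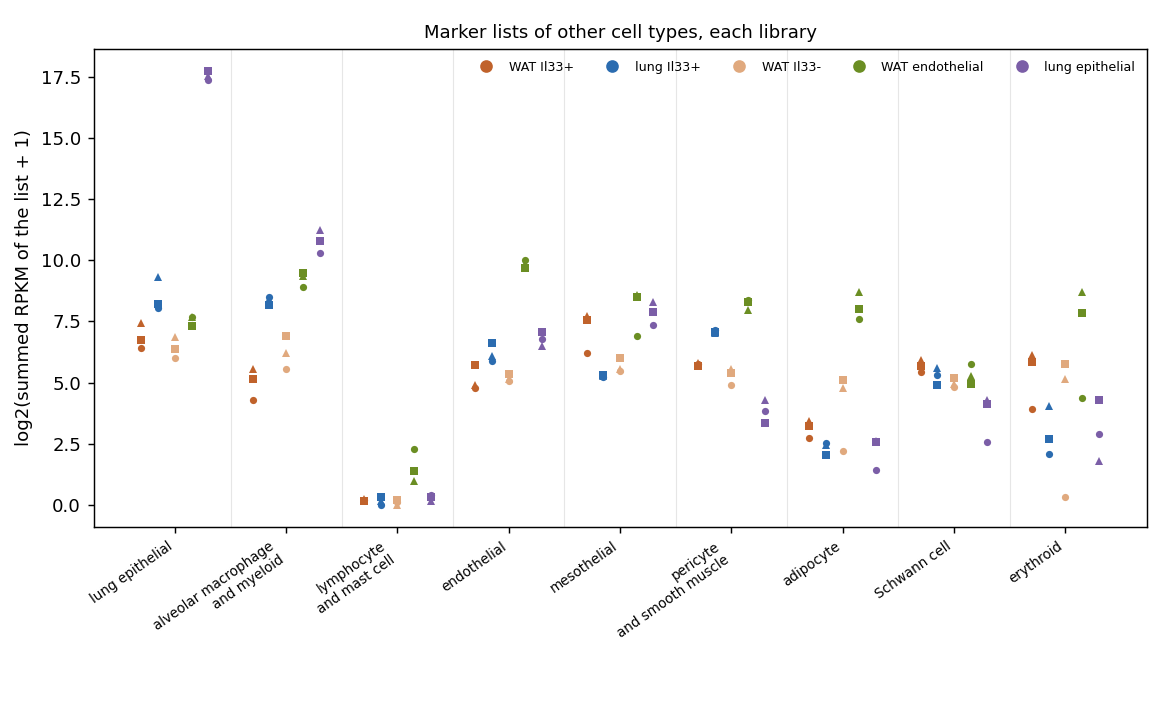
Summed RPKM of 9 marker lists of other cell types on a log2(sum + 1) scale, with 3 symbols for the 3 libraries of each of 5 populations (circle replicate 1, square replicate 2, triangle replicate 3). Il33+ lung MSC lie above Il33+ WAT-MSC for the lung epithelial and macrophage lists and below them for the mesothelial list.

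Matrix genes were called in both directions, at high and at low levels. Dcn, decorin, was at 2439, 3296 and 2624 RPKM in WAT and 2472, 2509 and 2528 RPKM in lung, and it did not pass the test. Sparc and Bgn, also matrix proteins, overlapped between the tissues. The main chain of fibrillar collagen I did not pass either although its libraries did not overlap, with Col1a1 at 823, 569.8 and 1578 RPKM in WAT and 1658, 2143 and 2646 RPKM in lung (-1.22 ± 0.36, limma adjusted p = 0.0821). Of 24 collagens tested 6 were higher in WAT and 1 in lung, beside 2.5% and 3.5% of all genes tested. Their median log2 difference was 0.14, beside 0.03 over all genes tested.

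The collagens higher in WAT were mostly minor or sheet-forming chains. Col5a3 was at 21.4, 11.7 and 22.8 RPKM in WAT and 3.60, 3.14 and 1.92 RPKM in lung (2.31 ± 0.31, limma adjusted p = 0.00147). Col6a5 was at 5.53, 4.12 and 6.69 RPKM in WAT and 0.24, 0.70 and 0.51 RPKM in lung (2.11 ± 0.30, adjusted p = 0.00216). Col8a1 (1.83 ± 0.31), Col15a1 of the zone below basement membranes (1.3 ± 0.22), Col6a3 (1.18 ± 0.23) and Col4a1 of basement membrane (1.02 ± 0.23) were also called. The single collagen higher in lung was Col23a1, a transmembrane collagen, at 6.47, 7.99 and 6.30 RPKM in lung and 1.29, 0.62 and 0.30 RPKM in WAT (-2.22 ± 0.31, adjusted p = 0.00184). Col6a3 lost the call without lung replicate 1 (limma adjusted p = 0.0551). Col4a1 kept it in only 1 of 6 fits with 1 library left out and was weakest without lung replicate 2 (0.111).

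Of 15 basement membrane genes tested, 5 were higher in WAT and 2 in lung, beside 2.5% and 3.5% of all genes tested. The nidogens bridge laminin and collagen IV networks. Nid1 was at 601, 835 and 709.6 RPKM in WAT and 227, 228 and 247 RPKM in lung (1.60 ± 0.20, limma adjusted p = 0.000922), and Nid2 at 20.3, 16.5 and 17.8 RPKM in WAT and 4.18, 4.89 and 3.79 RPKM in lung (1.86 ± 0.22, adjusted p = 0.000775). The laminin chains Lamb1 (0.96 ± 0.18), Lamc1 (0.96 ± 0.17) and Lama4 (0.75 ± 0.17) were higher in WAT by small but even steps: Lamc1 was at 304, 298 and 294 RPKM there and 155, 151 and 152 RPKM in lung. Without lung replicate 2 the limma adjusted p of the 3 laminins was 0.0634, 0.0548 and 0.112. Lama4 kept its call in only 1 of 6 fits with 1 library left out. Hmcn1, a large fibulin of tissue junctions, was higher in lung (-1.63 ± 0.31, adjusted p = 0.0109, and 0.0770 without lung replicate 2). Npnt, nephronectin, was called higher in lung too but was set apart, since its mean was 7.74 RPKM in lung epithelial cells and 5.01 RPKM in lung MSC.

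The elastic fibre system was split between the tissues, with 6 genes of 21 higher in WAT and 3 in lung. Over all genes tested these shares were 2.5% and 3.5%. The lung members were the core protein and an abundant microfibril component. Mfap4 was at 1033, 1020.5 and 1496 RPKM in lung and 144, 163 and 292 RPKM in WAT (-2.61 ± 0.29, limma adjusted p = 0.000507). Eln, elastin, was at 103, 107 and 248 RPKM in lung and 49.8, 29.1 and 70.4 RPKM in WAT (-1.56 ± 0.38, adjusted p = 0.0386). Loxl4, a crosslinking oxidase, was the third (-1.32 ± 0.26, adjusted p = 0.0125). In WAT the crosslinking oxidase Loxl2 (1.11 ± 0.17) and the fibulins Fbln5 (1.32 ± 0.19), Fbln7 (1.29 ± 0.33), Efemp1 (0.98 ± 0.22) and Fbln2 (0.87 ± 0.17) were higher, together with Emilin2 (0.89 ± 0.22). Only Mfap4, Fbln5 and Loxl2 of these kept their call in all alternatives. Of 6 fits with 1 library left out, Eln and Emilin2 kept their call in 1, Fbln7, Fbln2 and Efemp1 in 2, and Loxl4 in 4. Eln was weakest without WAT replicate 2 (limma adjusted p = 0.0950). Loxl4, Fbln7 and Fbln2 were weakest without lung replicate 2 (0.0708, 0.198 and 0.0855), and Efemp1 and Emilin2 without lung replicate 1 (0.124 and 0.15).

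Among other matrix genes 8 of 35 were higher in WAT and 6 in lung, beside 2.5% and 3.5% of all genes tested. Postn, periostin, which binds collagen and integrins, was at 75.3, 144 and 117 RPKM in WAT and 11.1, 13.2 and 15.1 RPKM in lung (2.96 ± 0.25, limma adjusted p = 0.000147). Fn1, fibronectin (1.01 ± 0.20), and Thbs1, thrombospondin-1 (1.64 ± 0.30), were abundant in both tissues and higher in WAT, with Fn1 past the threshold in all fits but 2 and at an adjusted p of 0.0644 without lung replicate 1. Mgp, matrix Gla protein, an inhibitor of calcification, was at 1161, 1415 and 2403 RPKM in lung and 259, 129.8 and 289.9 RPKM in WAT (-2.88 ± 0.35, adjusted p = 0.000881). The matricellular CCN genes were divided. Cyr61 (528, 777 and 506 RPKM in lung and 144, 202 and 165 RPKM in WAT, -1.81 ± 0.23) and Ctgf (-1.85 ± 0.26) were higher in lung, while Nov (14.3, 22.6 and 10.8 RPKM in WAT and 3.18, 2.25 and 3.03 RPKM in lung, 2.09 ± 0.29) was higher in WAT. The leucine-rich proteoglycans Aspn (1.79 ± 0.27) and Lum (1.23 ± 0.21) were higher in WAT and Podn was higher in lung (-1.07 ± 0.26, limma adjusted p = 0.0386, and 0.15 without lung replicate 2, where Lum was at 0.0529). Podn kept its call in only 1 of 6 fits with 1 library left out.

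Among matrix proteases and their inhibitors the widest difference was that of Timp3, a matrix-bound inhibitor of metalloproteases. Its level was 1180.0, 1354 and 1037 RPKM in lung and 212, 184 and 159 RPKM in WAT (-2.68 ± 0.20, limma adjusted p = 8.80e-05), whereas Timp2 was at 791, 805 and 746 RPKM in WAT and 1002, 951 and 754 RPKM in lung and did not pass the test. Mmp3, stromelysin-1, was at 103, 113 and 109 RPKM in lung and 24.3, 15 and 23.9 RPKM in WAT (-2.34 ± 0.22, adjusted p = 0.000202). In all, 3 of 28 tested members were higher in WAT and 6 in lung, beside 2.5% and 3.5% of all genes tested. Those of WAT belonged to the Adamts family (Adamts16, Adamts12 and Adamtsl3), and Timp1, Mmp27, Adamts17 and Adamtsl1 made up the rest of lung, each of them losing the call when 1 library was left out, with adjusted p up to 0.112, 0.160, 0.123 and 0.162 (without lung replicate 2, or lung replicate 3 for Adamts17). The call stayed in 1 of 6 such fits for Adamts17 and in 2 for Timp1, Mmp27 and Adamtsl1. Adamtsl3 was at 0.0539 without lung replicate 2.

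**Figure D4:**
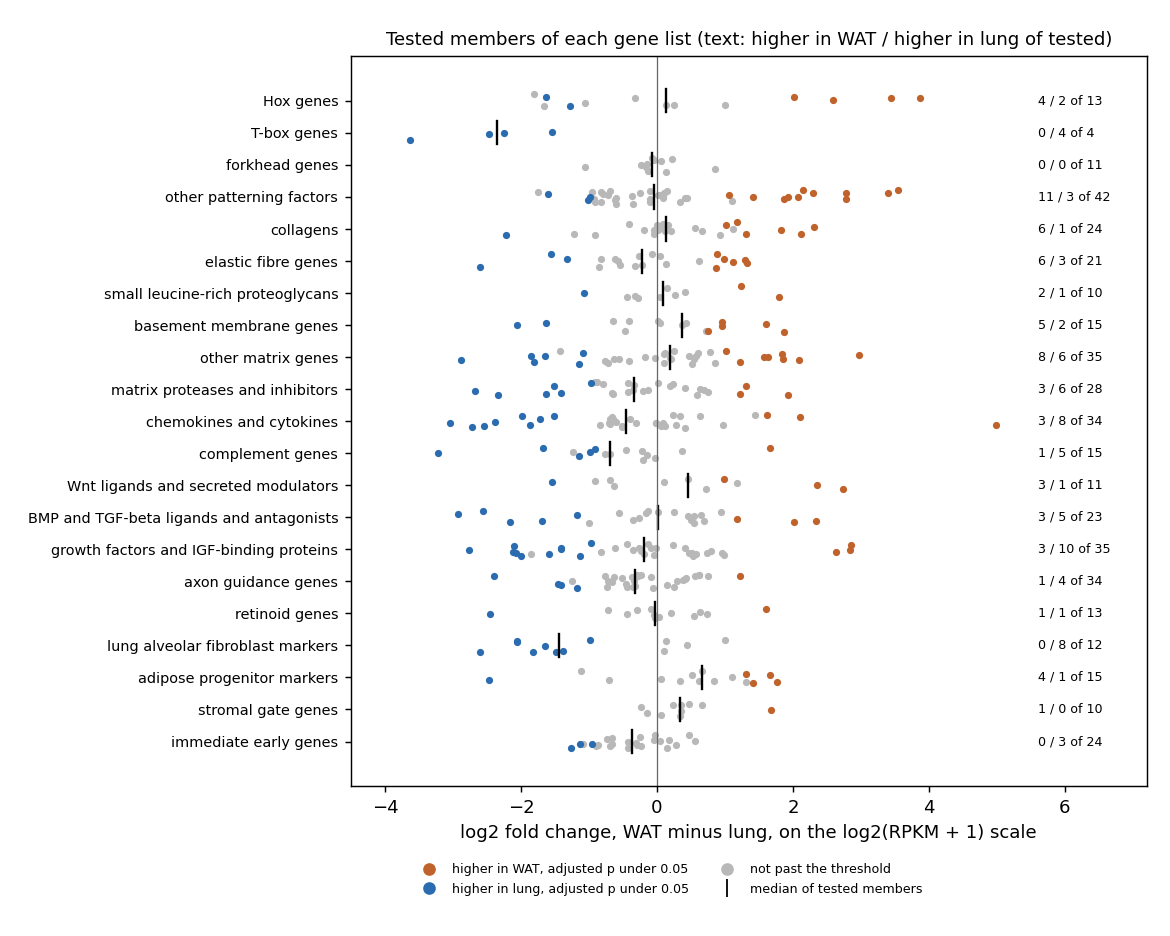
Log2 difference of every tested member of 21 gene lists, WAT minus lung; orange points are past the threshold and higher in WAT, blue points past it and higher in lung, grey points not past it, and the black tick is the median of the list. The T-box list lies wholly on the lung side, with a median of -2.36, the forkhead list holds no coloured point, and most matrix and signalling lists hold points of both colours.

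The called chemokine genes were scavenging receptors in WAT and ligands in lung. Of 34 chemokines, cytokines and atypical receptors tested, 3 were higher in WAT and 8 in lung, beside 2.5% and 3.5% of all genes tested. Of the 8, Ccl3, Ccl6 and Cxcl15 were set apart as epithelial or macrophage genes. The 3 of WAT were the atypical chemokine receptors Ackr1, Ackr3 and Ackr4, which bind chemokines and transport or degrade them without G protein signalling. Ackr4, which takes up Ccl19, Ccl21 and Ccl25, was at 33.6, 46.3 and 40.3 RPKM in WAT and 0.40, 0.18 and 0.30 RPKM in lung (4.98 ± 0.24, limma adjusted p = 3.62e-06). Ackr3, a scavenger of Cxcl12, was at 172, 249 and 197 RPKM in WAT and 62.6, 59.2 and 76.9 RPKM in lung (1.62 ± 0.20, adjusted p = 0.00104). Ackr1 was at 32.2, 44.0 and 50.4 RPKM in WAT and 8.37, 6.66 and 12.6 RPKM in lung (2.10 ± 0.26, adjusted p = 0.00107). The levels in Il33- WAT-MSC were 19.3 RPKM for Ackr4, 75 for Ackr3 and 10.5 for Ackr1.

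The candidates higher in lung included a ligand of Ackr4, Ccl19, and a ligand of Ackr3, Cxcl12. Ccl19, also a ligand of Ccr7 that draws lymphocytes and dendritic cells, was at 28.5, 16.2 and 52.6 RPKM in lung and 2.94, 4.20 and 5.64 RPKM in WAT (-2.55 ± 0.38, limma adjusted p = 0.00293). Cxcl12 was at 78.2, 77.6 and 88 RPKM in lung and 19.9, 27.1 and 18.5 RPKM in WAT (-1.86 ± 0.20, adjusted p = 0.000453). Cxcl13, a B cell attractant, was at 4.98, 6.78 and 13.5 RPKM in lung and 0.11, 0.20 and 0.74 RPKM in WAT (-2.73 ± 0.38, adjusted p = 0.00184). Tnfsf13b, the B cell survival factor BAFF, gave 10.4, 7.62 and 10.5 RPKM in lung and 1.19, 2.99 and 1.08 RPKM in WAT (-1.99 ± 0.32, adjusted p = 0.00436). None of these 4 overlapped between the tissues. Ccl8 was the fifth (-1.71 ± 0.43, limma adjusted p = 0.0415). It kept its call in only 1 of 6 fits with 1 library left out and was weakest without lung replicate 3 (0.153). Cytokines made in quantity by both, such as Cxcl1, Il6 and Ccl2, did not pass the test.

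Complement genes were higher in lung for 5 of 15 tested and higher in WAT for 1, beside 3.5% and 2.5% of all genes tested. The median of the list was -0.69, beside 0.03 over all genes tested. C4b, a component of the classical and lectin pathways, was at 207, 241 and 197 RPKM in lung and 20.9, 19.0 and 27.2 RPKM in WAT (-3.22 ± 0.20, limma adjusted p = 1.69e-05). Its near-identical neighbour C4a has no row of its own, so reads of the pair cannot be told apart. Cfb, factor B of the alternative pathway, was at 88, 99.5 and 108 RPKM in lung and 29.8, 20.4 and 43.9 RPKM in WAT (-1.68 ± 0.26, adjusted p = 0.00352). C1ra and C2 were also called, at -0.92 and -0.99, but lost their calls without lung replicate 2 (limma adjusted p = 0.113 and 0.157). With 1 library left out they kept them in 3 and 1 of 6 fits. The gene of WAT was Cd55, a membrane inhibitor of complement, at 109, 181 and 111 RPKM there and 50.2, 30.3 and 43.0 RPKM in lung (1.66 ± 0.26, adjusted p = 0.00350). C3, the most abundant after Serping1, was at 1105, 931 and 1199 RPKM in WAT and 1462, 1574 and 1399 RPKM in lung and did not pass the test.

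Of 35 growth factor and IGF-binding protein genes tested, 3 were higher in WAT, Fgf1 and Fgf18 among them, and 10 in lung. Over all genes tested these shares were 2.5% and 3.5%. Fgf18 was at 47.8, 44.5 and 59.7 RPKM in WAT and 6.62, 5.82 and 10.1 RPKM in lung (2.62 ± 0.24, adjusted p = 0.000188). Fgf1, a growth factor of adipose remodelling, was at 34.7, 61.0 and 61.3 RPKM in WAT and 4.67, 7.72 and 6.41 RPKM in lung (2.85 ± 0.27, adjusted p = 0.000252). Il33- WAT-MSC held a mean of 18 RPKM of Fgf18 and 6.96 RPKM of Fgf1.

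The genes higher in lung included some factors that act on vessels. Vegfd, a lymphatic growth factor abundant in lung, was at 114, 144 and 117 RPKM in lung and 37.4, 19.5 and 38.1 RPKM in WAT (-2.0 ± 0.26, limma adjusted p = 0.00132). The Tie2 ligands Angpt1, at 9.94, 8.36 and 7.71 RPKM in lung and 1.57, 0.61 and 1.71 RPKM in WAT (-2.10 ± 0.30, adjusted p = 0.00212), and Angpt4, at 9.33, 12.2 and 17.8 RPKM and 0.68, 0.51 and 2.24 RPKM (-2.76 ± 0.36, adjusted p = 0.00132), were also higher in lung. Pgf, placental growth factor, was at -2.12 ± 0.42 (adjusted p = 0.0140, and 0.0625 without lung replicate 2). Vegfa, the general endothelial factor, named here after its values were seen, stood at 31.5, 33.0 and 32.5 RPKM in WAT and 30.0, 34.3 and 34.0 RPKM in lung and did not pass the test. The summed level of 15 endothelial markers was 57.8 to 96.4 RPKM in lung and 26.6 to 52.3 RPKM in WAT, with 4 of them (among those Pecam1 and Cdh5) called higher in lung and set apart, against 820.1 to 1028 RPKM in the sorted endothelial cells of WAT. That of 12 pericyte and smooth muscle genes was 130.3 to 139 RPKM in lung and 49.4 to 55.3 RPKM in WAT, and the part of either in these genes was not tested. Igf2 (-2.07 ± 0.36), Gas6, a ligand of the TAM receptors that clear dying cells (-1.41 ± 0.24), Igfbp4 (-1.42 ± 0.27) and Igfbp7 (-0.97 ± 0.23) were higher in lung, and so was Fgf10, the bud-inducing factor of lung mesenchyme, at 3.20, 4.35 and 6.06 RPKM in lung and 0.46, 1.56 and 0.55 RPKM in WAT (-1.59 ± 0.34, adjusted p = 0.0195). Fgf23 lost the limma call with any 1 library left out, at its weakest without lung replicate 3 (adjusted p = 0.172). Fgf10, Igfbp4 and Igfbp7 kept theirs in 2, 4 and 1 of 6 such fits. Fgf10 was weakest without lung replicate 3 (0.0935), and Igfbp4 and Igfbp7 without lung replicate 2 (0.0639 and 0.147).

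**Figure D5:**
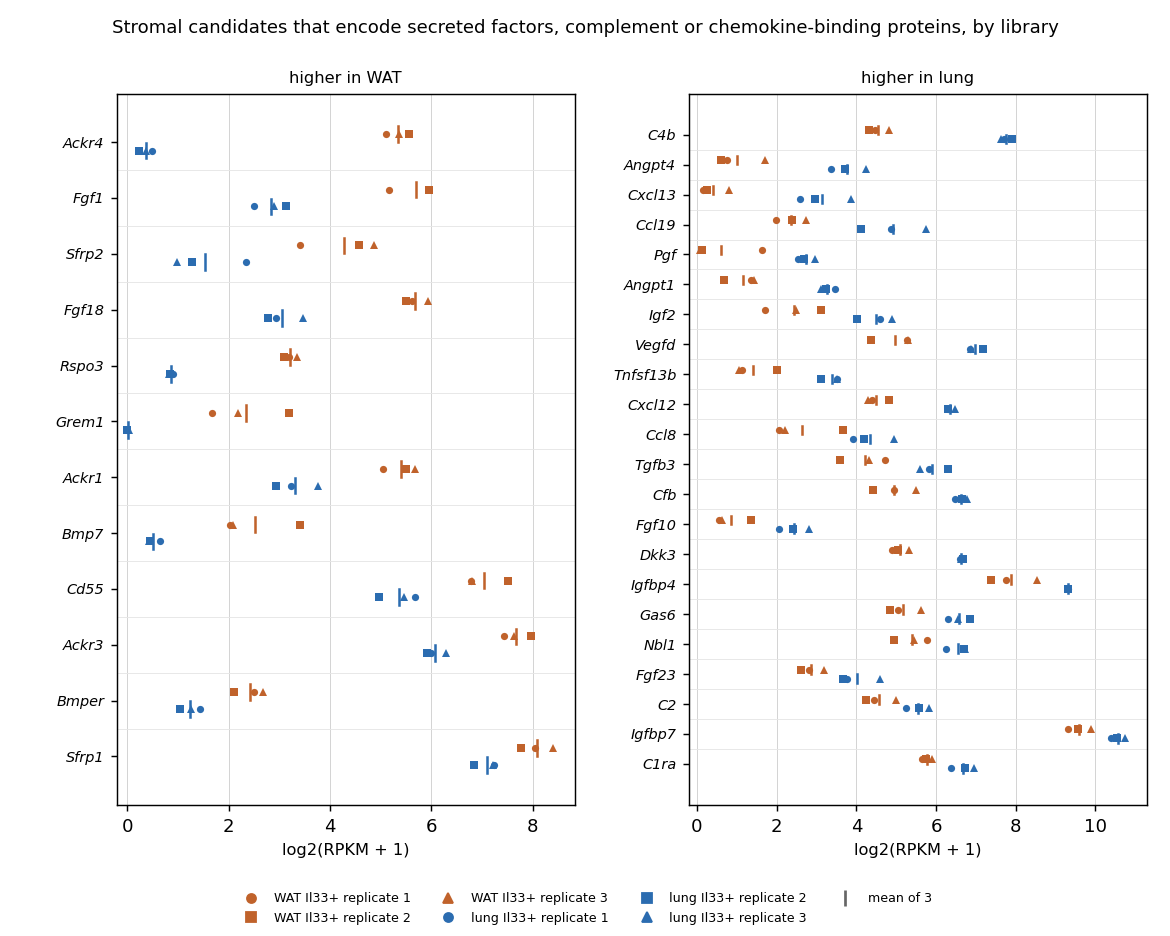
Level of stromal candidates on the chemokine, complement, Wnt, BMP and TGF-beta, and growth factor lists, as log2(RPKM + 1) in each library; orange symbols are the 3 WAT libraries, blue symbols the 3 lung libraries, and the vertical tick is the mean of 3. The genes higher in WAT include Ackr1, Ackr3, Ackr4, Fgf1 and Fgf18, and those higher in lung include C4b, Ccl19, Cxcl12 and Vegfd.

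Modulators of Wnt and BMP signalling differed in both directions. Of 11 Wnt genes tested 3 were higher in WAT and 1 in lung, beside 2.5% and 3.5% of all genes tested. Rspo3, which strengthens Wnt signalling through Lgr receptors, was at 8.16, 7.59 and 9.14 RPKM in WAT and 0.88, 0.79 and 0.78 RPKM in lung (2.35 ± 0.26, limma adjusted p = 0.000507). The secreted Wnt antagonists Sfrp2 (9.57, 22.7 and 28.1 RPKM in WAT and 4.07, 1.42 and 0.99 RPKM in lung, 2.74 ± 0.44) and Sfrp1 (0.98 ± 0.22) were higher in WAT, while Dkk3 was at 96.2, 101 and 97.4 RPKM in lung and 29.0, 31.8 and 39.2 RPKM in WAT (-1.54 ± 0.18, adjusted p = 0.000792). Sfrp1 lost the call without lung replicate 2 (adjusted p = 0.147).

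Of 23 BMP and TGF-beta genes 3 were higher in WAT and 5 in lung, beside 2.5% and 3.5% of all genes tested. Of the 5 higher in lung, 2 were set apart. Grem1, a secreted BMP antagonist, was at 2.18, 8.11 and 3.57 RPKM in WAT and at most 0.02 RPKM in lung (2.34 ± 0.39, limma adjusted p = 0.00554). Bmp7 was higher in WAT (3.09, 9.69 and 3.28 RPKM against at most 0.56 RPKM, 2.01 ± 0.39, adjusted p = 0.0125), as was Bmper (1.18 ± 0.29), and Tgfb3 (-1.69 ± 0.30) and Nbl1 (-1.17 ± 0.24) were higher in lung. Without lung replicate 2 the limma adjusted p was 0.0616 for Bmp7, 0.171 for Bmper, 0.0503 for Tgfb3 and 0.0968 for Nbl1. Bmper kept its call in only 1 of 6 fits with 1 library left out. Bmp5 and Bmp3 were called higher in lung, at -2.92 and -2.56, but fell just outside the level rule, with means of 10.0 and 9.84 RPKM in lung MSC and 10.6 and 9.97 RPKM in lung epithelial cells.

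Axon guidance and retinoid genes held a few marked differences. Of 34 guidance genes 1 was higher in WAT, Slit2 (1.21 ± 0.23), and 4 in lung, beside 2.5% and 3.5% of all genes tested. Unc5c, a netrin receptor, was at 4.19, 4.88 and 4.12 RPKM in lung and at most 0.05 RPKM in WAT (-2.40 ± 0.28, limma adjusted p = 0.000675), and the Slit receptor Robo2 was at 1.63, 2.64 and 1.85 RPKM in lung and at most 0.19 RPKM in WAT (-1.46 ± 0.29, adjusted p = 0.0144, and 0.0700 without lung replicate 2). Nrp2 and Sema3d were the others, with an adjusted p of 0.0940 and 0.0539 without that library. Of 13 retinoid genes Rbp4, the plasma carrier of retinol, was higher in lung, with 52.1, 56.6 and 90.4 RPKM against 7.08, 8.52 and 20.8 RPKM in WAT (-2.46 ± 0.36, adjusted p = 0.00268). Cyp26b1, which degrades retinoic acid, was higher in WAT (1.60 ± 0.35, adjusted p = 0.0228, and 0.0989 without lung replicate 3), and the synthesising enzyme Aldh1a2 did not pass the test.

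Of 12 tested markers of lung alveolar fibroblasts 8 were higher in lung and none in WAT, with a median of -1.44. Over all genes tested 3.5% were higher in lung. Npnt, 1 of the 8, was set apart by the level rule. The 4 that did not pass the test had positive differences, Enpep (0.99 ± 0.36), Tcf21 (0.44 ± 0.24), Ces1d (0.13 ± 0.35) and Wnt2 (0.11 ± 0.50). Limch1 was at 16.3, 19.5 and 15.4 RPKM in lung and 3.89, 3.05 and 3.01 RPKM in WAT (-2.06 ± 0.23, limma adjusted p = 0.000529). Inmt, an amine methyltransferase, was at 474, 460.2 and 267 RPKM in lung and 181, 69.2 and 103 RPKM in WAT (-1.82 ± 0.34, adjusted p = 0.0107, and 0.0634 without lung replicate 2), and Cdh11 (-1.38 ± 0.20) and Gyg (-1.49 ± 0.25) also passed. Of 15 adipose progenitor markers 4 were higher in WAT and 1 in lung, beside 2.5% and 3.5% of all genes tested. Lpl, lipoprotein lipase, was among the 4, at 106, 185 and 171 RPKM in WAT and 42.6, 32.2 and 59.6 RPKM in lung (1.76 ± 0.28, limma adjusted p = 0.00379). Pi16, which marks adventitial fibroblasts and the early progenitors of adipose tissue, was higher in lung. It was at 352, 426 and 495 RPKM in lung, 81.0, 60.8 and 85.7 RPKM in WAT and a mean of 12.4 RPKM in Il33- WAT-MSC (-2.47 ± 0.21, adjusted p = 0.000147).

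The remaining genes of the leading 15 in lung were of mixed kinds. St8sia2, a polysialyltransferase, was at 44.3, 34.0 and 41.5 RPKM in lung and 1.39, 2.36 and 1.72 RPKM in WAT (-3.86 ± 0.23, limma adjusted p = 1.69e-05), with a mean of 18.7 RPKM in lung epithelial cells. Adam23 was at 10.0, 16.1 and 17.5 RPKM in lung and 0.20, 0.63 and 0.30 RPKM in WAT (-3.47 ± 0.30, limma adjusted p = 0.000147). Its mean in Il33- WAT-MSC was 8.72 RPKM, above every Il33+ WAT library, so stromal cells of WAT also held this transcript. Apoe, a lipid carrier made by macrophages as well as by stroma, was at 248, 235 and 267 RPKM in lung and 22.6, 18.5 and 29.6 RPKM in WAT (-3.37 ± 0.21, adjusted p = 1.69e-05); the macrophage list moved with the tissue in the same direction, and its part in this gene was not tested. Dio2, the deiodinase that activates thyroid hormone (-2.90 ± 0.31), and Ptgfr, the receptor of prostaglandin F (-2.89 ± 0.28), were below 2.5 RPKM in every WAT library. Bpifa2 was listed at 0 in all 3 WAT libraries and was at 3.21, 6.83 and 8.69 RPKM in lung.

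Kcnj8 and Abcc9, which encode the pore and the regulatory subunit of a potassium channel gated by ATP and lie 16.2 kb apart on chromosome 6, were both higher in lung. Kcnj8 was at 14.8, 23.4 and 17.5 RPKM in lung and 0.81, 0.03 and 2.62 RPKM in WAT (-3.35 ± 0.42, limma adjusted p = 0.00104). Abcc9 was at 93, 77.0 and 83.8 RPKM in lung and 19.1, 17.6 and 20.7 RPKM in WAT (-2.09 ± 0.18, adjusted p = 0.000147). These genes also mark pericytes, as does Rgs5, which was higher in WAT (8.29, 16.4 and 11.1 RPKM against 0.18, 0.52 and 0.81 RPKM, 3.08 ± 0.32, adjusted p = 0.000418). The summed level of the 12 listed pericyte and smooth muscle genes was 130.3 to 139 RPKM in lung and 49.4 to 55.3 RPKM in WAT, and their part in these genes was not tested.

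In WAT the other leading genes were Pla1a, a phospholipase, at 36.7, 35.3 and 26.6 RPKM in WAT and 3.29, 2.79 and 3.22 RPKM in lung (3.04 ± 0.22, limma adjusted p = 7.41e-05), and Flrt3, a fibronectin-type adhesion protein that binds Fgf receptors (3.15 ± 0.35, adjusted p = 0.000537). Mab21l2, a factor of developing mesenchyme and eye, was at 6.71, 6.62 and 7.94 RPKM in WAT and 0.02, 0.01 and 0.25 RPKM in lung (2.89 ± 0.28, adjusted p = 0.000257). Myoc, myocilin, a secreted glycoprotein, was at 14.8, 6.61 and 14.5 RPKM in WAT and 0.76, 0.18 and 0.87 RPKM in lung (2.97 ± 0.36, adjusted p = 0.000854). The groups did not overlap for any of the 4.

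Of the 435 candidates, 178 stayed past the threshold in all 16 other ways of fitting the data. When replicate 2 of Il33+ WAT-MSC, the library that stood apart, was left out, 502 genes were called and 420 kept as candidates. When lung replicate 2 was left out the numbers were 261 and 219.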

How the data were processed

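RNA of the sorted cells was amplified with a kit that does not mark strand and sequenced on 2 lanes. Replicates 1 and 2 of Il33+ WAT-MSC and replicate 1 of Il33+ lung MSC were on lane 1 and the others on lane 2. Lane and tissue were thus confounded in part. The authors deposited RPKM values per RefSeq transcript, for 12698 transcripts. Only 41 of these were below 1 RPKM in all 15 libraries, so transcripts low in every population are mostly absent. The submitters' processing notes name TopHat2, Partek and mm10. No read counts were used, so no count test was made. RPKM of the transcripts of a symbol were summed (10222 symbols, 1786 with more than 1 transcript). Genes at 1 RPKM or more in at least 3 of the 6 libraries (8554) were tested with limma 3.58.1 in R 4.3.3 on log2(RPKM + 1) with a mean-variance trend and Benjamini-Hochberg adjustment over all of them, at 0.05. Each p-value sets the difference between the tissue means against the spread between these samples, which limma moderates with the spread of the other genes. The fit was checked on simulated data.

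The members and gene lists were chosen with earlier results of these data known. Named genes were the 15 candidates with the largest difference in each direction, up to 10 called and 4 abundant uncalled members of each list, any Hox, T-box or forkhead gene, the gate genes and a few fixed genes; exceptions are stated, and some genes are not reported here. Alternatives changed the scaling, pseudocount, filter, transcript summary, trend, lane term, replicate block and samples. Promoters and positions came from RefSeq (GRCm38.p6), by symbol, for 9877 symbols; 19 of the 30 leading genes had a window. Python 3.11.15 was used for the summaries.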

Additional observations from a re-analysis of the deposited data

How the results depend on the processing

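The 513 called genes and 435 candidates became 336 and 286 when all 15 libraries shared 1 estimate of the spread. Leaving out 1 library gave 261 to 502 called genes and 219 to 420 candidates, the lowest without lung replicate 2. The other alternatives kept both counts within 1.5 times, among them lane as a covariate, with 396 called genes and 337 candidates. Of 175 called genes named or listed, 106 kept their call in every fit and none changed direction. The labels do not say whether the replicate numbers pair the WAT and lung samples. Deviations of same-numbered WAT and lung libraries had correlations of 0.027, -0.067 and 0.057. Those of unlike-numbered libraries reached 0.12 and -0.137, so these values cannot decide it. The replicate block gave 454 called genes and 391 candidates. Of the genes that did not pass the test, Il33 changed sign without lung replicate 2 (-0.02), without WAT replicate 2 (-0.26) and within lane 2 (-0.22), Ly6a under quantile normalization (0.041) and within lane 2 (0.043), and Tslp without WAT replicate 2 (0.22) and within lane 2 (0.16); with 1 library left out Il33 ranged from -0.26 to 0.24 and Tslp from -0.59 to 0.22, and the cause was not tested. The depth of these libraries in reads per gene is unknown from RPKM, so no counting interval is given.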

Other observations

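Some further candidates were chosen after their values were seen. Ptch1, the hedgehog receptor and a target of the pathway, was at 56.1, 68.4 and 26.5 RPKM in lung and 8.99, 3.36 and 8.67 RPKM in WAT (-2.67 ± 0.40, limma adjusted p = 0.00288). Lung epithelial cells had a mean of 4.46 RPKM and Il33- WAT-MSC a mean of 3.24 RPKM of it. Vcam1, an adhesion molecule for leukocytes, was at 65.5, 68.7 and 89.2 RPKM in lung and 10.6, 11.6 and 15.9 RPKM in WAT (-2.47 ± 0.22, adjusted p = 0.000173). Lepr, the leptin receptor, was at 24.9, 27.3 and 28.2 RPKM in lung and 4.75, 6.47 and 6.40 RPKM in WAT (-2.02 ± 0.21, adjusted p = 0.000418), and the endothelin receptor Ednra (-1.71 ± 0.19) and the myosin light chain kinase Mylk (-2.22 ± 0.27) were also higher in lung.

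In WAT, Agtr1a, an angiotensin receptor, was at 12.1, 13.7 and 9.53 RPKM against 1.75, 1.73 and 0.88 RPKM in lung (2.39 ± 0.28, limma adjusted p = 0.000712). Enpp2, autotaxin, was at 11.6, 43.4 and 33.6 RPKM in WAT and 3.22, 2.45 and 2.72 RPKM in lung (2.83 ± 0.41, adjusted p = 0.00243). The interferon-inducible genes Ifi204 (41.2, 67.4 and 48.1 RPKM in WAT and 8.41, 9.91 and 11.2 RPKM in lung, 2.27 ± 0.23) and Slfn5 (1.74 ± 0.18) were higher in WAT and kept the call with each library left out, while Ifit1 (1.82 ± 0.41) lost it without lung replicate 2 (adjusted p = 0.120). These 3 were picked among such genes, and no test of the group was made.

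Of 24 immediate early genes, which respond within minutes to handling of cells, 3 were higher in lung and none in WAT. Over all genes tested these shares were 3.5% and 2.5%. Nr4a1 was at 362, 497 and 469 RPKM in lung and 197, 173 and 177 RPKM in WAT (-1.27 ± 0.19, limma adjusted p = 0.00333). Ier3 and Fos kept their calls in 3 and 1 of 6 fits with 1 library left out. At the weakest their adjusted p was 0.0651 without WAT replicate 1 and 0.154 without lung replicate 2. The part of such a response in the differences between the tissues was not tested.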
